A study of Mus musculus with 30 samples.

Results

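A set of 47 array probes gave a detectable signal in every sample of mouse hindbrain total RNA and in no sample of ribosome-bound RNA from noradrenergic or serotonergic neurons. They are described here by their signal, by their differences between the lines, treatments and sexes, and by the kind of total RNA. A probe was a member where its deposited detection p-value was under 0.01 on all 15 total RNA arrays and on none of the 15 arrays of ribosome-bound RNA. Members were 47 of 45281 probes on the array and 0.286% of the 16424 probes detected on all 15 total RNA arrays. Members were thus chosen by their detection p-values in total and in ribosome-bound RNA, so the difference between these is given below as a description with no test.

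In translating ribosome affinity purification (TRAP), a tagged ribosomal protein is made only in chosen cells, and pulling down the tag enriches the messenger RNAs which those cells are translating. Total RNA of the same tissue holds the transcripts of all its cells, among which neurons that release noradrenaline or serotonin are a small minority beside other neurons, glia, vessel cells and resident immune cells. Lipopolysaccharide (LPS), a component of the outer wall of Gram-negative bacteria, is sensed by innate immune receptors and brings on fever and lethargy. Noradrenergic neurons of the brainstem are known for their part in arousal and stress responses, and serotonergic neurons for theirs in mood, sleep and body temperature.

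Both mouse lines, on a B6;FVB background, carry a transgene in which the ribosomal protein Rpl10a is fused to EGFP, namely Tg(Slc6a2-EGFP/Rpl10a)JD1538Jdd or Tg(Slc6a4-EGFP/Rpl10a)JD60Jdd. It is driven by regulatory sequence of Slc6a2, the noradrenaline transporter, or of Slc6a4, the serotonin transporter. All animals were adults of 6 to 12 weeks with an implanted temperature transponder, housed at 30 °C, and no mouse without a transgene was analysed here. Females and males of either line received LPS (100 ug per kg, intraperitoneal) or sterile PBS, and hindbrain was taken for TRAP and for total RNA. Total RNA was set aside before the pull-down (Pre-IP) in amplification batch 1 and came from the material left after it (Unbound) in batch 2, so the kind of total RNA and the batch cannot be told apart. The 15 total RNA arrays were 7 of the Slc6a2 line (3 Pre-IP, 4 Unbound) and 8 of the Slc6a4 line (4 Pre-IP, 4 Unbound). Each line, sex and treatment had 2 total RNA arrays, 1 per batch, except LPS males of the Slc6a2 line with 1. The design text names 16 mice, and the p-values below measure the spread between these arrays.

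Between 20395 and 23122 probes were detected per total RNA array and between 15432 and 19424 per TRAP array. The files pair no probe with a gene, so members are given by probe ID, their gene products are not named, and the labelled tissue and cell types could not be checked against marker genes. Which hindbrain cells the members' transcripts came from was for the same reason not tested. Array precision is limited by the number of arrays.

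Members gave weak signals even in total RNA. Levels below are log2 intensities after background correction and quantile normalization over all 30 arrays. The mean level of a member over the total RNA arrays ran from 5.77 to 7.43 with a median of 6.47, against a median of 8.60 and a highest value of 15.4 over the 16424 probes detected on all total RNA arrays. On the deposited scale, the corresponding means ran from 147 to 293 intensity units. When those 16424 probes were ranked by level and divided into 10 classes of equal size, 29 members lay in the dimmest class, 14 in the next and 4 in the one after it, and none lay above. In those 3 classes 18.0%, 26.0% and 35.1% of probes were detected on all 15 TRAP arrays, against 99.9% in the brightest class. A probe's brightness also depends on how well it binds its target, so these levels order signals and not numbers of transcripts.

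The brightest member was ILMN_3014529. Its total RNA level was 7.09 at lowest, 7.54 at the median and 8.38 at highest in the Slc6a2 line, and 6.70, 7.17 and 8.12 in the Slc6a4 line, so the lines overlapped over most of their range. On no TRAP array did it exceed 5.82, which is below every total RNA value. The second, ILMN_2550725, ran from 6.32 to 8.36 over the total RNA arrays and reached at most 6.05 on a TRAP array. The dimmest members were ILMN_2654341, with total RNA levels from 5.33 to 6.13, and ILMN_1255162, from 5.31 to 6.76. Both overlapped with TRAP RNA, where their highest levels were 5.97 and 5.41. ILMN_3014529 was the 1 member with a detection p of 0 on all 15 total RNA arrays.

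With both fractions normalized together, the level needed for detection was higher on TRAP arrays than on total RNA arrays. The detection floor, taken as the lowest normalized log2 level among an array's detected probes, ran from 5.81 to 6.71 over TRAP arrays (median 6.11) and from 5.21 to 5.63 over total RNA arrays (median 5.32). The total RNA level of 13 members lay under the median TRAP floor, and that of 29 members lay under the highest. The size of this gap came with the scaling: the median floors were 5.57 for total RNA and 5.65 for TRAP when each fraction was normalized alone, and 7.01 and 7.06 as log2 of the deposited intensity, where the arrays of both fractions overlapped. With each fraction normalized alone, 0 members lay under the median TRAP floor and 6 under the highest. A fold difference is therefore a bound, which sets a member's mean in total RNA against the mean, per TRAP array, of the higher of its own level and the floor. This bound was above 1-fold for 34 members against the TRAP arrays of both lines, for 31 against the Slc6a2 arrays and for 40 against the Slc6a4 arrays. ILMN_3014529 was at least 2.49-fold higher in total RNA than in TRAP RNA of both lines, and ILMN_2550725 at least 2.40-fold. No bound against both lines was higher than that of ILMN_3014529. Under 4 other scalings, compared after the data had been seen, this bound ran from 1.68-fold to 4.16-fold, and 37 to 47 members had a bound above 1-fold. The 4.16-fold came with each fraction normalized alone. There the probes detected on all total RNA arrays also leaned to total RNA, with a median of 0.51 log2 units. In bulk RNA, fewer cells of a type and less RNA per cell cannot be told apart.

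On TRAP arrays the members' values lay under the detection threshold and gave no order between the lines. The median level over members was 4.70 to 4.97 on TRAP arrays of the Slc6a2 line and 4.74 to 4.92 on those of the Slc6a4 line. The mean in Slc6a2 TRAP was the lower for 27 of 47 members, while the median of these means was 4.98 in Slc6a2 and 4.93 in Slc6a4 TRAP. Every member's mean was higher in total RNA, by 0.37 to 2.62 log2 units (median 1.53), a direction that the rule largely fixes. Under the 4 other scalings every member was also higher in total RNA, with medians from 0.71 to 2.02. Over all probes detected on all total RNA arrays the median was 0.11 in the main scaling and 0.035 to 0.51 in the others. The 2.02 and the 0.51 both came from normalizing each fraction alone. The TRAP values behind the members' differences lie under the detection threshold. For 20 members each TRAP level was under each total RNA level, and for 27 the ranges overlapped. The rule favours such separation and the share over other probes was not computed, so these counts are not read as a result. Of the members, 35 had a detection p under 0.05 on at least 1 TRAP array, 12 had 0.05 or more on every one and 4 had 0.1 or more on every one. The share of other probes was not computed for these counts, so they are not read as closeness to detection. Over all member and TRAP array combinations the median detection p was 0.255, and 71.1% were under 0.5, the value of a probe at the median of the negative controls. For the 14692 probes detected on no array, the median was 0.572 and 42.7% were under 0.5. Both sets were selected on these same p-values, so the figures are a description. They place members under the threshold in TRAP RNA and do not show that they were absent from it.

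At the edges of the rule, ILMN_3161168, ILMN_2522155 and ILMN_2778655 had their lowest TRAP p at 0.01068, and ILMN_1244117, ILMN_1255162 and ILMN_1214369 their highest total RNA p at 0.00962. Just outside it, ILMN_1256155 and ILMN_1212818 were detected on 1 TRAP array at a p of 0.00855, and ILMN_2657478 missed 1 total RNA array at 0.01068. Outside by 1 TRAP array were 86 probes, and by 1 total RNA array 48. Farthest inside was ILMN_1231989, whose lowest TRAP p was 0.27991 and whose levels were 5.96 to 7.32 in total RNA and at most 4.89 in TRAP RNA. The number of members rose from 47 to 67 when the batch 1 PBS female of the Slc6a2 line was left out of the TRAP arrays, and leaving out any other array gave 47 to 61. Leaving out an array can only keep or add members under this rule.

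Probes in the members' range of brightness were mostly detected on some TRAP arrays. Within the members' range of total RNA level lay 4040 probes, of which members were 1.16%. These probes were detected on a median of 12 TRAP arrays, and 975 of them (24.1%) on all 15. They share the members' range and are not matched in level, since most members lay at its dim end. In the dimmest class of probes, which held 29 members, members were 1.77% and the median was 11 TRAP arrays. A further 58 probes were detected on all total RNA arrays and on no Slc6a2 TRAP array but on some Slc6a4 TRAP arrays (median level 6.69), and 209 the other way round (median level 6.57). Non-detection was asked of 8 Slc6a2 arrays in the former and of 7 Slc6a4 arrays in the latter, so these counts are not compared. The 10882 probes detected on all 30 arrays had a median level of 9.43. In the opposite direction, 5 probes were detected on all TRAP arrays and on no total RNA array.

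Across the total RNA arrays, the SD of a member ran from 0.21 to 0.93 log2 units with a median of 0.48, against 0.39 for all 24914 probes tested. The median residual SD of the fit given below was 0.41 for members and 0.33 for all probes tested. For probes in the members' range of level it was 0.39, near that of members. Pairs of members correlated over the 15 arrays from -0.77 to 0.91 with a median Pearson r of 0.119. The first principal component of the members held 30.0% of their variance and the second 14.9%. These correlations share the arrays' batch, line and treatment and are given as a description.

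Differences were fitted with limma over the 24914 probes detected on at least 3 total RNA arrays, with adjusted p-values (Benjamini-Hochberg) over all of them and 0.05 as the threshold. All 47 members were among those probes because the rule put them there. Standard errors of a member's difference were 0.18 to 0.38 log2 units (median 0.23) for treatment, line, sex and kind of total RNA.

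Most members lay higher in Unbound RNA of batch 2 than in Pre-IP RNA of batch 1. The difference was positive for 40 members and negative for 7, with a median of 0.33 log2 units. Over all probes tested 48.3% were positive and the median was -0.015, and over the 4040 probes in the members' range of level the values were 47.9% and -0.019. By limma, 1 of 47 members passed the adjusted threshold (2.13%), against 14.1% of all probes tested, 5.76% in the same direction, and 7.55% of the probes in the members' range. At an unadjusted p under 0.05 there were 14 members (29.8%) and 29.6% of all probes, but 22.0% of the probes in the members' range. Over the other settings tried, 0 to 5 members passed, and 1962 to 4107 of all probes tested. Members lay on the Unbound side more often than all probes did, and the share that passed the threshold was not above that of all probes.

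The member that rose was ILMN_2550725. In the Slc6a2 line its log2 levels were 6.94, 7.21 and 7.46 in Pre-IP RNA and 7.26, 7.59, 7.84 and 8.12 in Unbound RNA. In the Slc6a4 line they were 6.32, 6.82, 6.92 and 7.00 in Pre-IP RNA and 6.98, 7.85, 7.99 and 8.36 in Unbound RNA. In either line the lowest Unbound array lay inside the Pre-IP range and the others above it. The difference was 0.87 log2 units (SE 0.23, limma adjusted p = 0.0264), from 0.65 in Slc6a2 mice and 1.03 in Slc6a4 mice. The call was lost, at limma adjusted p = 0.0657 to 0.081, without either array of the LPS females of the Slc6a2 line, or without any 1 array of the PBS females, LPS females or PBS males of the Slc6a4 line, and over all alternatives the adjusted p ran from 0.0089 to 0.081.

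ILMN_1213186 had a larger difference and did not pass the threshold. Its levels in the Slc6a4 line were 5.39, 5.79, 6.05 and 6.10 in Pre-IP RNA and 6.30, 7.33, 7.67 and 7.69 in Unbound RNA, with no overlap. In the Slc6a2 line they were 6.59, 6.68 and 7.08 against 6.78, 6.83, 6.94 and 7.43, which overlap. The difference was 0.93 log2 units (SE 0.30, limma adjusted p = 0.0562), and the adjusted p ran from 0.0245 to 0.157 over the alternatives. On the other side were ILMN_2747124 at -0.43 (SE 0.20, limma adjusted p = 0.166) and ILMN_1214369 at -0.41 (SE 0.18, limma adjusted p = 0.149). ILMN_1214369 was 5.38 to 5.87 in Unbound RNA (median 5.62) and 5.76 to 6.25 in Pre-IP RNA (median 6.14), so both kinds overlapped. No member was free of overlap between Unbound and Pre-IP arrays, against 4.13% of all probes tested.

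Within the Slc6a4 line, the array medians over members were 6.06 to 6.28 in Pre-IP RNA (mean 6.17 ± 0.11, SD, n = 4) and 6.50 to 6.84 in Unbound RNA (mean 6.67 ± 0.15, SD, n = 4), without overlap. Within the Slc6a2 line they were 6.40 to 6.46 (mean 6.43 ± 0.03, SD, n = 3) and 6.36 to 6.76 (mean 6.52 ± 0.18, SD, n = 4), with overlap. The difference was positive for 39 of 47 members in the Slc6a4 line (median 0.43) and for 33 of 47 in the Slc6a2 line (median 0.13), against 49.0% and 47.3% of all probes. A limma test of the kind of total RNA by line, added after the data had been seen, called none of 24914 probes and so no member. At an unadjusted p under 0.05 it held 1 member and 2425 probes in all (9.73%), and the smallest limma adjusted p of a member was 0.449.

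The lean towards Unbound RNA went with how seldom a probe was detected in TRAP RNA. Probes in the members' range of level, all detected on all total RNA arrays, were divided by the number of TRAP arrays that detected them. The share higher in Unbound RNA was 85.1% for the members, 71.1% for 280 probes detected on 1 to 3 TRAP arrays, 57.9% for 560 on 4 to 7 and 49.0% for 931 on 8 to 11. It was 43.1% for 1247 probes on 12 to 14 TRAP arrays and 39.0% for 975 on all 15. The order was the same within the Slc6a2 line, from 70.2% to 41.4%, and within the Slc6a4 line, from 83.0% to 40.2%. An order over these classes was not particular to the kind of total RNA. For LPS minus PBS the positive share rose from class to class, from 36.2% for the members to 52.6% for probes on all 15. The share higher in the Slc6a2 line was 66.0% for the members and 45.6% for probes on all 15. In the classes between it was 49.8% to 54.6%. The classes were drawn after the values had been seen and received no test. Among TRAP arrays, 51.1% of members and 50.0% to 59.0% of the other classes were higher in batch 2 than in batch 1. Member values there lie under the detection threshold, so their share could not show a shift between batches. The detection floor was 5.27 to 5.63 on Unbound arrays (median 5.44) and 5.21 to 5.48 on Pre-IP arrays (median 5.29), and its part in the difference was not tested.

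No member passed the threshold for LPS against PBS in total RNA, where limma called 19 of 24914 probes (0.0763%). The difference was positive for 17 members and negative for 30, with a median of -0.085 log2 units, against 50.4% positive and a median of 0.0023 over all probes. At an unadjusted p under 0.05 were 5 members (10.6%), 7.29% of all probes and 5.62% of the probes in the members' range. The 95% interval of the difference lay within 1 log2 unit of 0 for 40 members. Changes above 2-fold were outside the interval for these. The intervals differed in width, so which smaller changes they still held differed between members. No member had treatment groups free of overlap, against 0.0562% of all probes.

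The member with the smallest p was ILMN_2428397. Its level was 5.45 at lowest, 5.69 at the median and 6.08 at highest on the 7 LPS arrays, and 5.95, 6.38 and 7.09 on the 8 PBS arrays. LPS arrays were mostly the lower, with overlap between 5.95 and 6.08. The difference was -0.71 (SE 0.20, limma adjusted p = 0.313), at -0.55 in batch 1 and -0.80 in batch 2. ILMN_2642397 was at -0.62 (SE 0.28, limma adjusted p = 0.671), and its value came from batch 2 (-0.99) more than from batch 1 (-0.0075). It was -0.35 without the Slc6a2 LPS male of batch 2. That array was the only LPS male of its line in total RNA, so the Slc6a2 line then entered with females alone.

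With a positive difference, ILMN_1232716 had 5.78, 6.55 and 7.09 as its lowest, median and highest level under LPS and 5.52, 5.68 and 6.58 under PBS. The LPS median lay near the highest PBS value. The difference was 0.62 (SE 0.22, limma adjusted p = 0.519). ILMN_1228598 was at 0.58 (SE 0.20, limma adjusted p = 0.499), with a similar value in either batch (0.55 and 0.49).

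Within a line, no member passed for LPS either. Limma called 1 probe in Slc6a2 mice (0.00401%) and 0 in Slc6a4 mice (0%). At an unadjusted p under 0.05 were 1920 probes and 5 members in Slc6a2 mice, and 1029 probes and 3 members in Slc6a4 mice. In Slc6a2 mice that is 10.6% of members, 7.71% of all probes and 5.5% of probes in the members' range. In Slc6a4 mice it is 6.38%, 4.13% and 2.97%. Positive differences were found for 20 members in the Slc6a2 line (median -0.099) and for 17 members in Slc6a4 mice (median -0.087), which is 42.6% and 36.2% of members against 51.9% and 48.8% of all probes. The 95% interval lay within 1 log2 unit of 0 for 14 and 31 members.

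The LPS response was compared between the lines as an interaction. Limma called 0 probes (0%) and so no member, with 1138 probes and 4 members at an unadjusted p under 0.05. That is 8.51% of members, 4.57% of all probes and 3.07% of probes in the members' range. ILMN_1231989 had levels of 6.53, 6.69 and 7.21 under LPS and 5.96, 6.08, 6.25 and 6.38 under PBS in the Slc6a2 line. In the Slc6a4 line its levels were 6.45, 6.57, 6.60 and 6.94 under LPS and 6.81, 6.96, 7.09 and 7.32 under PBS. LPS arrays were thus the higher without overlap in the Slc6a2 line and mostly the lower in the Slc6a4 line. The response was 0.74 and -0.41, a difference of 1.15 (SE 0.38, limma adjusted p = 0.945). ILMN_2492805 lay the other way, at -0.97 and 0.55, a difference of -1.52 (SE 0.49, limma adjusted p = 0.945). ILMN_2560832 and ILMN_3014529 differed by 1.22 (SE 0.47) and -1.03 (SE 0.45), both at limma adjusted p = 0.945. For ILMN_2560832 the sign was negative in batch 1 alone. The difference was 0.44 without the Slc6a2 LPS male of batch 2, where its level was 7.80. In batch 1, as after leaving out this array, the Slc6a2 line had no LPS male. The response of that line then came from females alone, against both sexes in the Slc6a4 line, so the comparison was not the same. The interval lay within 1 log2 unit of 0 for 6 members, so most differences between the lines' responses were not resolved.

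No member passed for the Slc6a2 line against the Slc6a4 line in total RNA, where limma called 5 probes (0.0201%). The difference was positive, that is higher in the Slc6a2 line, for 31 members and negative for 16, with a median of 0.070, against 49.5% positive over all probes. Within batches the members' median was 0.13 in batch 1 and -0.048 in batch 2, so the direction did not hold in both. At an unadjusted p under 0.05 were 6 members (12.8%), 8.87% of all probes and 5.79% of the probes in the members' range. No member had lines free of overlap, against 0.108% of all probes.

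ILMN_2629911 was 6.05 at lowest, 6.88 at the median and 7.30 at highest in the Slc6a2 line and 5.47, 5.97 and 6.82 in the Slc6a4 line. The Slc6a2 median lay above every Slc6a4 array, and the ranges overlapped below it. The difference was 0.72 (SE 0.23, limma adjusted p = 0.426). ILMN_1226082 was at 0.74 (SE 0.29, limma adjusted p = 0.494). Lower in the Slc6a2 line were ILMN_1244117 at -0.64 (SE 0.23, limma adjusted p = 0.484) and ILMN_1219674 at -0.51 (SE 0.19, limma adjusted p = 0.494), neither past the threshold.

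No member passed for female against male, where limma called 8 probes (0.0321%). Differences were positive for 21 members and negative for 26, with a median of -0.023. An unadjusted p under 0.05 was found for 3 members (6.38%), against 3.84% of all probes and 2.18% of the probes in the members' range. ILMN_2522155 was 5.55, 5.80 and 7.07 as its lowest, median and highest level in 8 females and 5.94, 6.88 and 7.48 in 7 males. The groups overlapped, with the median of females under every male array. The difference was -0.97 (SE 0.21, limma adjusted p = 0.476). ILMN_1244117 was at 0.82 (SE 0.23, limma adjusted p = 0.999) and ILMN_2565686 at 0.64 (SE 0.25, limma adjusted p = 0.999), both toward higher levels in females, and ILMN_1255524 was at -0.44 (SE 0.21, limma adjusted p = 0.999). No member had sexes free of overlap, against 0.0401% of all probes.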

How the data were processed

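RNA of 30 mouse hindbrain samples was measured on Illumina bead arrays. For each probe and array the authors deposited an intensity together with a p-value for detection. The deposited intensity values were not normalized between arrays, as judged from the values. Steps in the deposited p-value correspond to 936 negative controls. The submitters' processing notes name lumi. Its role and how beads were summarised are not given in the labels or headers.

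Intensities were background-corrected with normexp from the detection p, quantile normalized with an offset of 16 and put on a log2 scale (neqc of limma 3.58.1, R 4.3.3). Total RNA arrays were fitted with a mean per line, sex and treatment and a batch term (lmFit, eBayes with a trend), which left 6 residual degrees of freedom. The batch number comes from the labels and marks shared amplification. The batch 2 minus batch 1 differences of the 7 groups with both batches correlated across probes at a mean of 0.22 (0.084 to 0.35 over 21 pairs). The fit was tested on simulated data. Members and lists were chosen with earlier results of these data known. Named members were the brightest and dimmest 2, those nearest the rule's threshold, and, per comparison and direction, the 2 called members with the largest difference or, where fewer passed, those with the smallest p. IDs shown beside the edges of the rule beyond these were picked by the same nearness. Alternatives were another threshold, scaling, filter, block or weighting, and leaving out each array. None of the probe IDs was in the gene table at hand (0 matches), so gene lists and marker lists were not tested.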

Additional observations from a re-analysis of the deposited data

Results flagged for a closer look

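Among 42 sets of values, an end array lay farther from its neighbour than Dixon's 95% limit allows in 3, and chance alone gives about 1 in 20. Each set was the arrays of a line in total RNA or, for the median over members only, also in TRAP RNA. The Slc6a2 total RNA array of the LPS male in batch 2 had a median level over members of 6.76, against 6.53 for the next and 6.36 for the lowest of the 7 arrays. On the same array ILMN_2560832 was at 7.80, against 6.59 for the next and 6.04 for the lowest. The Slc6a4 total RNA array of the LPS male in batch 1 had ILMN_1228598 at 7.42, against 6.84 for the next and 6.36 for the lowest of the 8 arrays. The causes were not tested.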

How the results depend on the processing

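The number of members moved with the detection threshold: a p under 0.001 gave 7 probes, of which 1 was among the 47, and a p under 0.05 gave 36, of which 12 were. With the 8 TRAP arrays of the Slc6a2 line alone the rule held 105 probes, and with the 7 of the Slc6a4 line alone 256. Leaving out an array gave 47 to 67. With fewer arrays the rule can only keep or add probes, so the counts with arrays left out could not fall under 47. For LPS (also per line and by line), line and sex, 0 members passed under each of 12 other settings and each of 15 left-out arrays. Members called for the kind of total RNA were 5 over probes detected on all 15 total RNA arrays, 5 with array weights, 4 with additive terms, 2 with the title's letter as a fixed term and additive terms, and 0 to 3 without an array. Over all probes tested, 2426 to 4107 were called under the 9 other settings and 1962 to 3509 without an array. The number of probes tested changed with the filter. The share of all probes is not given per setting, so these member counts are not read as a result. Over all probes tested, the count called moved from 19 to between 0 and 121 for LPS, from 1 to between 0 and 53 for LPS in Slc6a2 mice, from 0 to at most 1 in Slc6a4 mice and at most 9 for LPS by line, from 5 to between 0 and 350 for line, from 8 to between 0 and 17 for sex, and from 3502 to between 1962 and 4107 for the kind of total RNA. The number higher in Unbound RNA stayed at 38 to 41 of 47, with medians of 0.16 to 0.38. Without an array the medians were -0.18 to -0.021 for LPS, -0.0050 to 0.11 for line and -0.077 to 0.029 for sex. ILMN_1226082 turned to -0.17 for line under the title's letter with additive terms. Among total RNA arrays, letter D held only Slc6a2 arrays and letter E only Slc6a4 arrays. The line difference under that setting therefore rested on the few arrays of letter F. ILMN_2560832 turned to -0.023 for LPS by line in batch 1 alone. The cause of the change in ILMN_2560832 was not tested. Without the batch block, which pairs arrays by their replicate number, the medians were -0.053 for LPS, 0.085 for line and -0.052 for sex, and no member's call changed. The letter could not be fitted as a fixed term beside the group means. The gap between the detection floors of TRAP and total RNA, and the bounds that rest on it, moved with the scaling, so non-detection in TRAP RNA gives no fixed limit on a level.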
